A study of Mus musculus with 225 samples.

Results

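The *Lin28*, *Hmga* and *Igf2bp* genes are known for their activity in embryonic tissues and for their decline towards adulthood. Their 7 members, *Lin28a*, *Lin28b*, *Hmga1*, *Hmga2*, *Igf2bp1*, *Igf2bp2* and *Igf2bp3*, were chosen by symbol and not by any measured value. All 7 were found among the 23165 genes of the raw counts, and 5 of them, without *Lin28a* and *Lin28b*, among the 10948 genes of the normalized table.

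The measurements came from single cells of embryonic day 12.5 mouse forelimbs, from the autopod, which forms the hand, and from the zeugopod, which forms the forearm. Every cell of both tissues was heterozygous for Hoxd11::GFP, a tau-GFP knock-in within the *Hoxd11* coding sequence on a mixed C57Bl6CBAF1 background, so that 1 allele of *Hoxd11* carried the reporter in both tissues and no cell without it was sequenced. Limbs of several embryos were pooled, cells were sorted for GFP and each was captured on a Fluidigm C1 chip as a library of its own. The labels do not tie cells to embryos. Each tissue therefore counts as 1 pooled sample, its cells do not stand for replicates, and the comparisons carry no p-values.

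Of 225 captured cells, 26 lacked a column in the normalized table and were left out. The cells used were 76 from the autopod (59 in run NXT0072 and 17 in NXT0143) and, from the zeugopod, 58 in NXT0142 and 65 in NXT0143. Tissue and run were joined, since only NXT0143 held both tissues. Differences between tissues are therefore given over all cells, within NXT0143, and between the NXT0072 autopod and the NXT0142 zeugopod cells. Reads on genes ranged from 186271 to 9437447 per cell, with a median of 3003655, and the median number of genes detected was 3684 in autopod and 3995 in zeugopod cells. The tissue labels were checked against markers. *Hoxd13*, which patterns the digits, had at least 5 reads in 85.5% of autopod and 0.813% of zeugopod cells. *Shox2*, a gene of the more proximal limb, reached that number in no autopod cell (a count of 0 of 76 allows up to 3.95%) and in 59.3% of zeugopod cells. No cell carried 3 markers of muscle, epithelium or endothelium, or 2 of macrophages, at 5 reads or more. Single markers of these lists did reach 5 reads, most often *Csf1r* (3.95% of autopod and 13.8% of zeugopod cells), *Pax7* (1.32% and 12.2%) and *Epcam* (2.63% and 7.32%). No autopod and 17 zeugopod cells (13.8%) carried 2 markers of tendon, and of the blood list only *Hba-x* could be matched to a single row.

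The 3 families are linked by the let-7 microRNAs. Lin28 proteins bind let-7 precursors and block their maturation, and let-7 in turn represses many growth genes, *Lin28*, *Hmga2* and *Igf2bp1* among them. Hmga proteins are small architectural chromatin proteins that bind AT-rich DNA, and Igf2bp proteins bind messenger RNAs, *Igf2* among them, and alter their stability, transport and translation.

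Mature sequences of the let-7 family in RefSeq (GRCm38.p6) are shown first because they define the element that the family reads. Of 11 mature 5′ arms, 10 carry the seed GAGGUAG at bases 2 to 8, which is in capitals here, and let-7j carries GAGGUAU. Mature microRNAs were not measured in these polyA libraries.
let-7a-5p: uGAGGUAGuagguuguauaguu
let-7g-5p: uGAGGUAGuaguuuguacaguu
miR-98-5p: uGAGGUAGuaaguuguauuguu

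The complement of that seed, CTACCTC, was searched on the transcribed strand of the longest annotated 3′ UTR of each protein-coding gene (GENCODE M21, GRCm38). It occurred in 9.02% of 21037 such UTRs, which had a median length of 960 bases, and in all 7 members. *Lin28b*, *Hmga2* and *Igf2bp1* held 4 matches each in UTRs of 4445, 3014 and 6337 bases, *Lin28a* held 2 in 2775 bases, and *Hmga1*, *Igf2bp2* and *Igf2bp3* held 1 each in 1183, 1784 and 2119 bases. Among UTRs within 20% of the same length, 0.134% held as many matches as *Hmga2*, 0.236% as many as *Lin28b*, and 0.355% as many as *Igf2bp1*. At least 1 match occurred in 8.07% of UTRs near the length of *Hmga1*, 12% near *Igf2bp2* and 13.3% near *Igf2bp3*. The members include genes long known as let-7 targets, so the matches are a description of the group and not a test of it. For each gene 1 match is printed below with the 7 matching bases in capitals, to show where the element lies in each gene. The 7 bases are alike because they were the search string. Where a gene holds several matches, the one shown is followed by A, as are 1 of the 4 in *Lin28b*, 1 of the 4 in *Hmga2* and 3 of the 4 in *Igf2bp1*.
Lin28a (chr4:134005189-134005210, minus strand): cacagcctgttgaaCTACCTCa
Lin28b (chr10:45381022-45381043, minus strand): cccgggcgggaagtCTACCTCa
Hmga1 (chr17:27563278-27563299, plus strand): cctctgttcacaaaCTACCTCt
Hmga2 (chr10:120364224-120364245, minus strand): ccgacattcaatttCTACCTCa
Igf2bp1 (chr11:95961778-95961799, minus strand): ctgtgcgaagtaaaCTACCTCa
Igf2bp2 (chr16:22059473-22059494, minus strand): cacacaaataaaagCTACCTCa
Igf2bp3 (chr6:49086787-49086808, minus strand): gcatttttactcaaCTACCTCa

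By read counts the members fell into 3 levels of abundance, but per kb of gene length *Hmga1* and *Igf2bp2* were close in the autopod. *Lin28a* and *Lin28b* were detected in very few cells, *Hmga1* and *Hmga2* were found in many cells at low counts, and the *Igf2bp* genes reached the highest counts in single cells. Per kb of gene length, the median normalized value in cells with the gene was 3.31 in the autopod and 7.53 in the zeugopod for *Hmga2*, and 19 and 13.7 for *Hmga1*. It was 28.1 and 43 for *Igf2bp1*, 22 and 34.4 for *Igf2bp2*, and 304 and 142 for *Igf2bp3*. The *Igf2bp3* values rest on a length of 2828 bases, 34.7% of its 8159 annotated exon bases. Those are all bases in an exon of any of its 5 annotated transcripts, not the length of 1 transcript. Rescaled to them, the *Igf2bp3* values would be 105.3 and 49.2. A cell is counted as having a gene at 5 reads or more, and shares are given with an exact binomial (Clopper-Pearson) 95% interval, which covers counting error only. In the autopod the order of the shares was *Igf2bp1* at 53.9% (42.1 to 65.5), *Igf2bp2* at 44.7% (33.3 to 56.6), *Hmga1* at 43.4% (32.1 to 55.3), *Hmga2* at 40.8% (29.6 to 52.7) and *Igf2bp3* at 27.6% (18 to 39.1). Each interval in that order overlapped the next. In the zeugopod *Hmga2* came first at 70.7% (61.9 to 78.6), ahead of *Igf2bp1* at 65% (55.9 to 73.4), *Igf2bp2* at 60.2% (50.9 to 68.9), *Igf2bp3* at 43.9% (35 to 53.1) and *Hmga1* at 36.6% (28.1 to 45.7), and again neighbours overlapped. For scale, the median share over the 4898 genes that passed the low-value filter was 35.5% in the autopod and 38.2% in the zeugopod. That filter kept genes that reached 5 reads in 25% or more of autopod cells or of zeugopod cells, and it passed 5 of the 7 members.

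**Figure D1:**
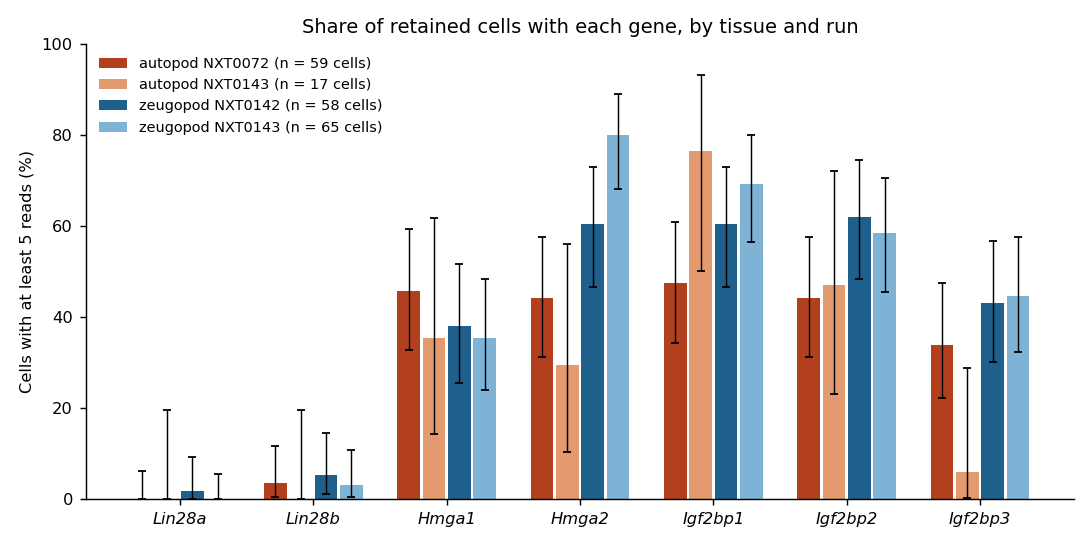
Share of retained cells with at least 5 reads of each gene (y axis, percent) in each tissue and run, with error bars for the 95% Clopper-Pearson interval. Hmga2 stood higher in both zeugopod groups (60.3% and 80%) than in both autopod groups (44.1% and 29.4%), and Igf2bp3 was lowest in the 17 autopod cells of NXT0143 (5.88%).

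*Lin28b* reads were concentrated in very few cells. Over all retained cells it had 7974 reads, of which 96.7% lay in 3 cells. These were the zeugopod cell Z_93 with 3211 reads, the autopod cell A_63 with 2674 and the zeugopod cell Z_127 with 1827. Only 7 cells (3.52%, interval 1.43 to 7.11) had 5 reads or more, 2 from the autopod and 5 from the zeugopod. None of them was an autopod cell of NXT0143, where a count of 0 of 17 allows up to 17.6%. The next highest cells, Z_22 and Z_26, had 138 and 92 reads, and 7 more cells held 1 to 3 reads each.

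*Lin28a*, the paralogue that recruits a uridylyltransferase to the let-7 precursor, had 17 reads in all. These lay in 2 cells, 14 in Z_127 and 3 in Z_93, which were also among the 3 cells rich in *Lin28b*. The remaining cell of that group, A_63, had no *Lin28a* read. All 3 cells had at least 5 reads of *Hmga2* and *Igf2bp1*, which are common genes here. Over the retained cells *Hmga2* reached that number in 40.8% of autopod and 70.7% of zeugopod cells, and *Igf2bp1* in 53.9% and 65%. Z_93 held 1495 reads of *Igf2bp1*, 323 of *Igf2bp2*, 145 of *Hmga2*, 93 of *Igf2bp3* and 27 of *Hmga1*. A_63 held 282 of *Igf2bp1*, 78 of *Hmga1*, 7 of *Hmga2*, 3 of *Igf2bp2* and none of *Igf2bp3*. Z_127 held 3227 of *Igf2bp3*, 66 of *Hmga2*, 53 of *Igf2bp2*, 20 of *Igf2bp1* and 4 of *Hmga1*. Of the cell cycle markers *Mki67*, *Top2a*, *Ccnb1* and *Cdk1*, Z_93 had 9928, 10848, 90 and 1745 reads. A_63 had 3, 562, 2 and 5211, and Z_127 had 1155, 138, 0 and 0. In A_63 and Z_127 these markers thus did not go together. With 5895, 4053 and 4720 genes detected Z_93, A_63 and Z_127 ranked 4, 85 and 39 among the retained cells of both tissues.

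*Hmga2* (chr10:120361275-120476469, minus strand, GRCm38), an architectural chromatin protein whose loss makes mice small, was the member with the largest tissue difference over all cells, except with a pseudocount of 10, where *Igf2bp3* had -0.54 and *Hmga2* -0.37, and without cycling cells, where *Igf2bp3* had -1.51, *Igf2bp2* -1.13 and *Hmga2* -1.01. In autopod cells that had the gene its reads ranged from 5 to 157 with a median of 17, and in such zeugopod cells from 6 to 425 with a median of 49. The 2 ranges overlapped, and the zeugopod median was higher. On the scale of log2(normalized value + 1), where the normalized value is the authors' spike-in scaled count per kb of gene length, the mean was 1.18 ± 1.29 in the autopod (SD over 76 cells) and 2.24 ± 1.63 in the zeugopod (SD over the zeugopod cells). The difference, autopod minus zeugopod, was -1.06, beside a median of -0.12 over all 4898 genes. Of those genes 655 (13.4%) were higher in the zeugopod by at least 1, so *Hmga2* was 1 gene among many past that fold and, on this scale, the only member past it over all cells. It was -1.33 within NXT0143, where the median of all genes was 0.18, and -0.91 between NXT0072 and NXT0142, where that median was -0.34. Past a fold of 1 towards the zeugopod were 9.21% of genes within NXT0143 and 24.3% between the other runs. Both run comparisons had the same sign. The second stayed short of 1, so *Hmga2* was not among the 4.12% of genes past the fold in both. After each cell was thinned to 500000 reads, 15.3% of autopod and 50.4% of zeugopod cells had the gene. Outside cells with chondrogenic markers, which were more frequent in the autopod, the difference was -1.13.

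Its paralogue *Hmga1* (chr17:27556497-27563674, plus strand) did not share that pattern. Reads in cells with the gene ranged from 5 to 306 (median 39) in the autopod and from 5 to 307 (median 27) in the zeugopod. The shares of 43.4% and 36.6% had overlapping intervals, and the level difference was 0.49 over all cells, 0.14 within NXT0143 and 0.52 between the other runs. Outside cells with chondrogenic markers it was 1.05, past the fold. The *Hmga1* value is uncertain, because reads from closely similar sequences elsewhere in the genome cannot be told apart in this counting.

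**Figure D2:**
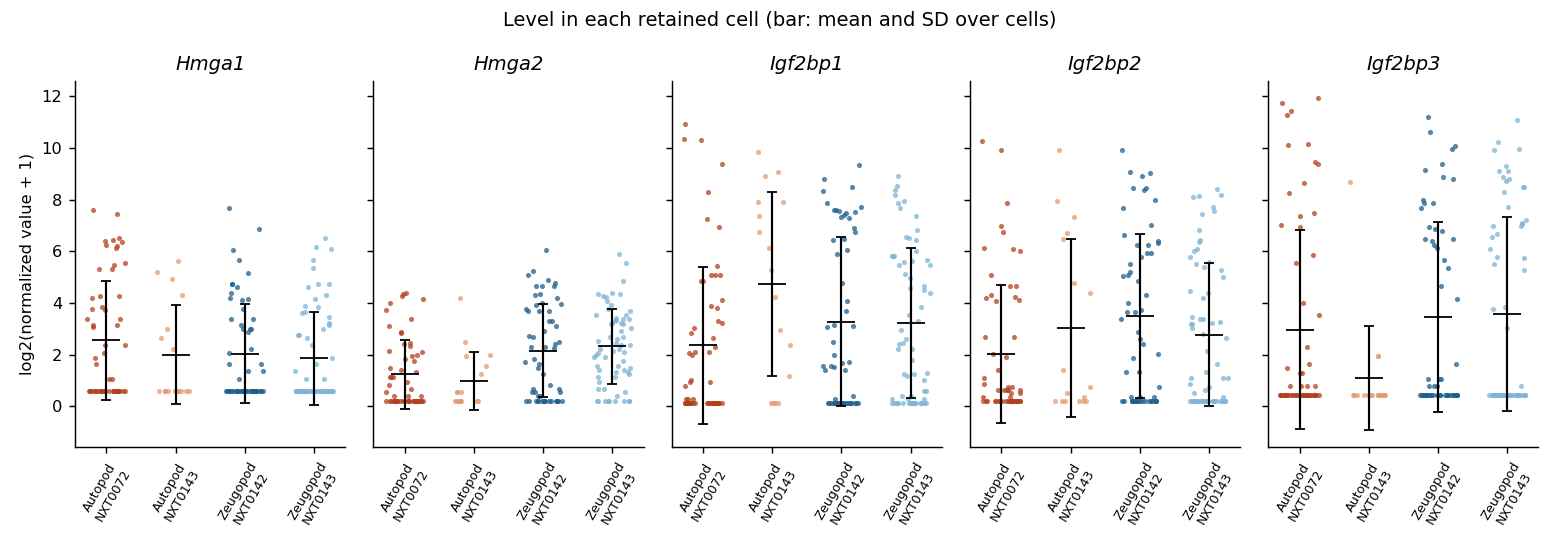
Level of the 5 members in each retained cell on the log2(normalized value + 1) scale (y axis), by tissue and run, with the mean and SD over cells as black bars. The row of points at the base of each panel holds the cells with no or very few reads, and the Igf2bp genes spread over a wider range than the Hmga genes.

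The *Igf2bp* genes were the most variable members. *Igf2bp1* (chr11:95957163-96005940, minus strand) had 5 to 5849 reads in autopod cells with the gene (median 282) and 5 to 6428 in zeugopod cells (median 365.5). *Igf2bp2* (chr16:22059009-22163299, minus strand), which is also kept in many adult tissues, had 6 to 4868 (median 97) and 5 to 8547 (median 229). *Igf2bp3* (chr6:49085223-49214957, minus strand) had 5 to 6289 (median 289) and 11 to 9351 (median 478.5). For all 3 the ranges in the 2 tissues overlapped almost entirely.

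Over all cells the level differences of the *Igf2bp* genes were under the fold of 1, at -0.35 for *Igf2bp1*, -0.86 for *Igf2bp2* and -0.96 for *Igf2bp3*, against SDs over cells of 2.88 to 3.71. On the log2(CPM + 1) scale *Igf2bp2* (-1.20) and *Igf2bp3* (-1.07) passed that fold, and with a pseudocount of 0.1 both had -1.16. Both also passed it without cycling cells (-1.13 and -1.51), and *Igf2bp3* outside cells with chondrogenic markers (-1.02). Rescaled to its annotated exon bases, *Igf2bp3* had -0.79. The run comparisons divided them. *Igf2bp1* was higher in the autopod by 1.52 within NXT0143, where 18.4% of genes were higher there by at least 1, and lower by 0.91 between the other runs (a difference of -0.91). *Igf2bp2* had 0.27 and -1.47. Opposite signs in the 2 run comparisons were seen for 48.6% of the 4898 genes, so they are common in these data. *Igf2bp3* had the same sign in both, -2.47 within NXT0143 and -0.49 between the other runs, where the median of all genes was -0.34. In NXT0143 it was found in 1 of 17 autopod cells, A_27 (5.88%, interval 0.149 to 28.7), and in 29 of 65 zeugopod cells (44.6%, interval 32.3 to 57.5). NXT0072 autopod cells had it at 33.9% and NXT0142 zeugopod cells at 43.1%. Within the autopod, the 2 runs thus differed in *Igf2bp3* by 1.87 and in *Igf2bp1* by -2.37 (NXT0072 minus NXT0143), more than the tissues did over all cells. Run, chip and pool cannot be told apart here.

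*Igf2bp3* shares 1529 of its 8159 annotated exon bases with *Malsu1*, a gene on the opposite strand, and the counting is not stated to use strand. Of the 75 cells with *Igf2bp3*, 51 had no read of *Malsu1*. In cells without such a read, *Igf2bp3* was found in 25% of autopod and 38.1% of zeugopod cells.

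**Figure D3:**
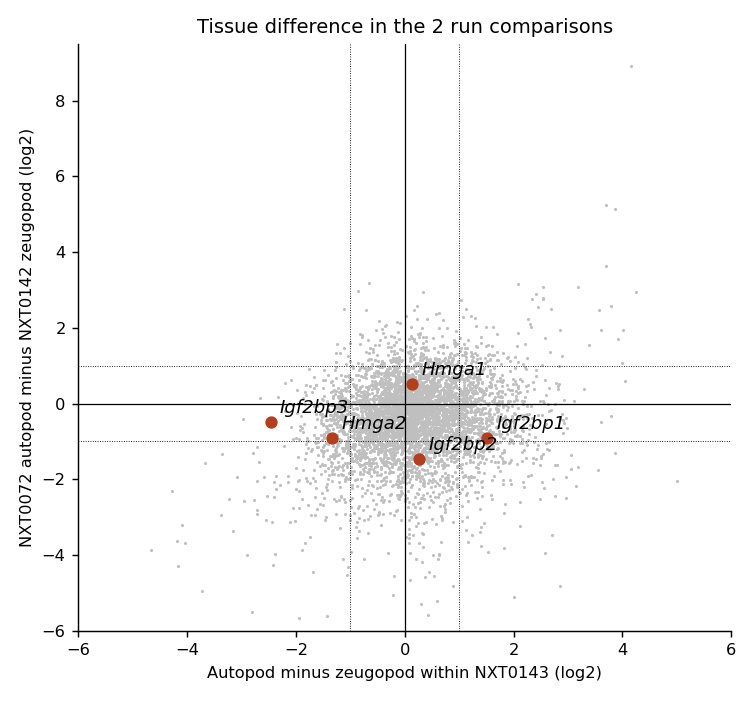
Difference between tissues on the log2 scale within NXT0143 (x axis) and between NXT0072 autopod and NXT0142 zeugopod cells (y axis) for 4898 genes in grey and the 5 members in red, with dotted lines at a difference of 1. Hmga2 (-1.33 and -0.91) and Igf2bp3 (-2.47 and -0.49) lie below 0 on both axes, and Hmga1 (0.14 and 0.52) lies above 0 on both. Igf2bp1 and Igf2bp2 have opposite signs. The median of all genes was 0.18 on the x axis and -0.34 on the y axis.

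Cells differed in which *Igf2bp* paralogues they held. At least 1 of the 3 was present in 62 autopod cells (81.6%) and in 82.1% of zeugopod cells, so that the shares without any were close, at 18.4% (10.5 to 29) and 17.9% (11.6 to 25.8). Single paralogues were the more frequent state in the autopod. *Igf2bp1* alone was found in 23.7% of autopod cells (14.7 to 34.8) and 7.32% of zeugopod cells (3.40 to 13.4), and *Igf2bp2* alone in 21.1% (12.5 to 31.9) and 8.94% (4.55 to 15.4). *Igf2bp3* alone was rare in both, at 2.63% and 3.25%. All 3 together were found in 10.5% of autopod cells (4.66 to 19.7) and 24.4% of zeugopod cells (17.1 to 33). Cells with all 3 also had more genes detected, with medians of 5525.5 (autopod) and 4891.5 (zeugopod) against 3021.5 and 3406.5 in cells with none. The part of depth in these combinations was not tested.

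In most autopod cells with any *Igf2bp* gene, 1 paralogue made up nearly all of the signal. A single paralogue held at least 90% of the summed normalized value in 42 of 62 autopod cells (67.7%, interval 54.7 to 79.1) and in 47 such zeugopod cells (46.5%, interval 36.5 to 56.7). By raw reads, with no division by length, the counts were 42 and 45. By run the shares were 70.2% and 60% in the autopod and 42.2% and 50% in the zeugopod. The leading paralogue varied from cell to cell. It was *Igf2bp1* in 25, *Igf2bp2* in 22 and *Igf2bp3* in 15 of the 62 autopod cells, and *Igf2bp1* in 26, *Igf2bp2* in 35 and *Igf2bp3* in 40 of the zeugopod cells. By raw reads *Igf2bp3* led in 11 autopod and 32 zeugopod cells, *Igf2bp1* in 29 and 32, and *Igf2bp2* in 22 and 37.

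Over all cells of a tissue, the ranking of the paralogues depended on the gene length, and it varied between runs. Per length, *Igf2bp3* made up 57% of the summed normalized *Igf2bp* values in the autopod and 57.8% in the zeugopod. By reads it made up 37.2% and 30.2%, and *Igf2bp1* led with 41.4% and 39.8%. The normalized table divides *Igf2bp3* by 2828 bases, against 9563 for *Igf2bp1* and 7151 for *Igf2bp2*. Over the 5 transcripts of *Igf2bp3*, however, 8159 exon bases are annotated. With *Igf2bp3* alone rescaled to those bases and the other lengths kept, its shares would be 31.5% and 32.2%. *Igf2bp1* would have 44.9% and 34.1%, and *Igf2bp2* 23.6% and 33.7%, so the paralogues would be close in the zeugopod. The leader would then be *Igf2bp2* in NXT0142 (39.3%), *Igf2bp3* in NXT0143 zeugopod cells (38.6%) and *Igf2bp1* in NXT0143 autopod cells (61.8%). In NXT0072 *Igf2bp3* would have 40% and *Igf2bp1* 39.8%. By reads, *Igf2bp3* led in NXT0072 with 46% against 35.3% for *Igf2bp1*.

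**Figure D4:**
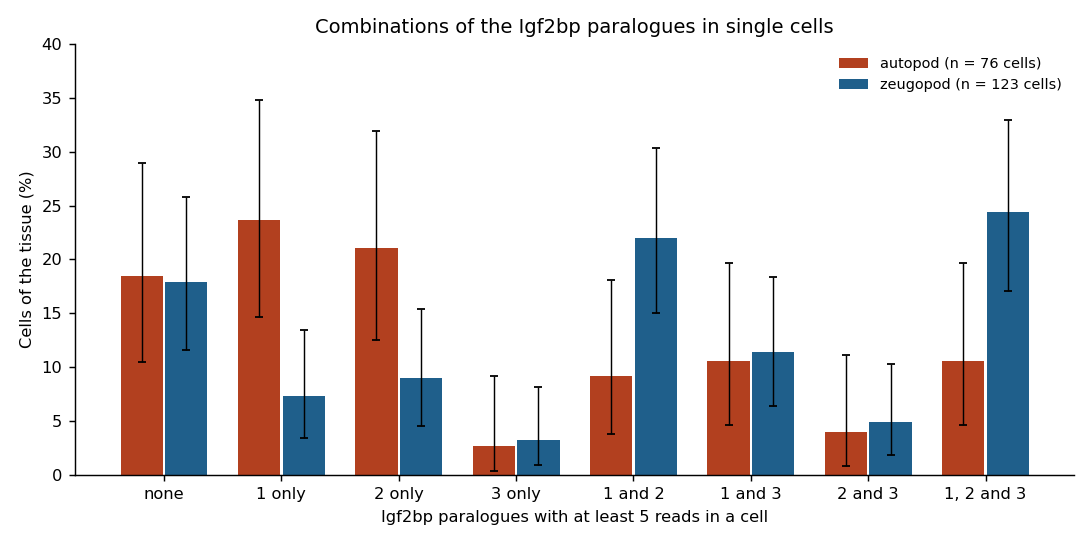
Share of autopod and zeugopod cells (y axis, percent) with each combination of Igf2bp1, Igf2bp2 and Igf2bp3 at 5 reads or more (x axis), with 95% Clopper-Pearson intervals. Cells with a single paralogue were more frequent in the autopod, and cells with all 3 in the zeugopod (24.4% against 10.5%).

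The 5 measured members were weakly co-expressed, and less so with the number of genes detected held constant. Ranked within each tissue and run, the 10 pairs of members had rank correlations of 0.165 to 0.351 over the retained cells with a median of 0.231. Over all pairs of the 4898 genes the median was 0.0944, and 90% of pairs lay between -0.0420 and 0.238. Each member was itself correlated with the number of genes detected in a cell, with coefficients from 0.377 for *Hmga2* to 0.493 for *Igf2bp3*. With that number held constant, the median of the 10 pairs was 0.0781. No such value was computed for all pairs, so co-expression beyond the number of genes detected was not tested. The highest pairs were *Hmga1* with *Igf2bp1* (0.351) and *Igf2bp1* with *Igf2bp3* (0.343).

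Pairs of members varied between the groups. *Igf2bp1* and *Igf2bp3* were found together in 16 autopod cells, where the product of their shares gives 11.3, and in 44 zeugopod cells, where it gives 35.1. *Igf2bp1* and *Igf2bp2* were together in 15 autopod cells against 18.3 from the product, and in 57 zeugopod cells against 48.1. *Hmga2* and *Igf2bp3* had a rank correlation of -0.230 in NXT0072 autopod cells and 0.566 in NXT0142 zeugopod cells, with 0.158 and 0.160 in the autopod and zeugopod cells of NXT0143. These are descriptions of cells that share pools and chips.

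The genes most like a member over cells were mostly broadly detected genes of basic cell functions. For *Hmga1* they included *Ran* (0.467), which drives nuclear transport, and *Tubb5* (0.465), a tubulin. For *Hmga2* they were *Canx* (0.428), *Rpl8* (0.402) and *Arf1* (0.397). For *Igf2bp1* they were *Rpl4* (0.442), *Dpysl2* (0.436) and the splicing regulator *Ptbp1* (0.407). *Igf2bp2* was most like *Cwc15* (0.396), *Hspe1* (0.359) and *Eif3a* (0.358), and *Igf2bp3* most like *Dpysl2* (0.469), *Mdh2* (0.458) and *Ywhae* (0.456). No member was among the 3 genes most like another member. With genes detected held constant, the coefficients of the genes named here fell to between 0.165 and 0.298.

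In cells with cartilage markers *Igf2bp3* was lower than in the other cells of all 4 groups of tissue and run. The other 4 members of the normalized table had mixed signs, in part by small margins. For *Igf2bp1*, *Hmga1* and *Hmga2* the only difference above 0 was 0.02 (NXT0143 autopod), 0.12 (NXT0143 zeugopod) and 0.46 (NXT0143 zeugopod), respectively. *Igf2bp2* was above 0 in both autopod groups (0.22 in NXT0072 and 0.21 in NXT0143) and in the NXT0143 zeugopod (1.22). Cells with at least 3 of *Sox9*, *Col2a1*, *Acan*, *Col9a1* and *Matn1* at 5 reads or more, called chondrogenic here, numbered 35 in the autopod (46.1%) and 38 in the zeugopod (30.9%). *Igf2bp3* was found in 20% of chondrogenic and 34.1% of other autopod cells, and in 26.3% of chondrogenic and 51.8% of other zeugopod cells. Its mean level was lower in chondrogenic cells by 1.22 in the autopod (a difference of -1.22) and by 2.00 in the zeugopod (-2.00). The differences were -1.19 and -1.25 in the 2 autopod groups and -2.79 and -1.26 in the 2 zeugopod groups, so all 4 had 1 sign. The -1.25 of the NXT0143 autopod rests on A_27, since 0 of 8 chondrogenic and 1 of 9 other cells had the gene, and without that cell it was -0.38. In the autopod *Igf2bp1* (-1.47) and *Hmga1* (-1.44) differed by more. *Igf2bp1* was found in 40% of chondrogenic and 65.9% of other autopod cells, and *Hmga1* in 31.4% and 53.7%. In the zeugopod they had -0.92 and -0.33. A decrease of at least 1 was common, with 27.1% of all genes in the autopod and 11.4% in the zeugopod, and with 30.8%, 32.7%, 27.4% and 10.9% in the 4 groups in the same order. The median over all genes was also below 0 in each group, at -0.58, -0.35, -0.47 and -0.004. Genes lower in all 4 groups were not counted. *Igf2bp2* showed no such decrease over either tissue, with differences of 0.23 and -0.08, though the 2 zeugopod runs had -1.51 and 1.22. *Hmga2* was found in 52.6% of chondrogenic and 78.8% of other zeugopod cells, with a level difference of -1.91 in NXT0142 and 0.46 in NXT0143. Chondrogenic cells had fewer genes detected (medians of 3390 against 3890 in the autopod and 3869.5 against 4051 in the zeugopod), and the part of this in the differences was not tested. After thinning, *Igf2bp3* was found in 14.7% of chondrogenic and 31.6% of other autopod cells, and in 24.3% and 51.2% of zeugopod cells.

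Cells with cell cycle markers had higher shares of all 5 members. Cells with at least 3 of *Mki67*, *Top2a*, *Ccnb1* and *Cdk1* at 5 reads or more, called cycling here, numbered 18 in the autopod and 23 in the zeugopod. *Igf2bp3* was found in 55.6% of cycling and 19% of other autopod cells, and in 60.9% and 40% of zeugopod cells. Its level difference was 3.73 in the autopod and 1.79 in the zeugopod. *Igf2bp1* was found in 91.3% of cycling and 59% of other zeugopod cells, and in 61.1% and 51.7% of autopod cells. *Hmga2* had the smallest differences, 0.43 in the autopod and 0.80 in the zeugopod, both under the fold. Cycling cells were higher by at least 1 for 50.6% of all genes in the autopod and 41% in the zeugopod, so 4 of 5 members past that fold in each tissue stand beside a high background. Genes detected were 4170.5 against 3402 and 5053 against 3900.5. After thinning, *Igf2bp3* was found in 58.8% of cycling and 12.7% of other autopod cells, whereas *Hmga2* was found in 11.8% and 16.4%. Of the 10 cycling autopod cells with *Igf2bp3* all were from NXT0072, and NXT0143 held 2 cycling autopod cells.

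**Figure D5:**
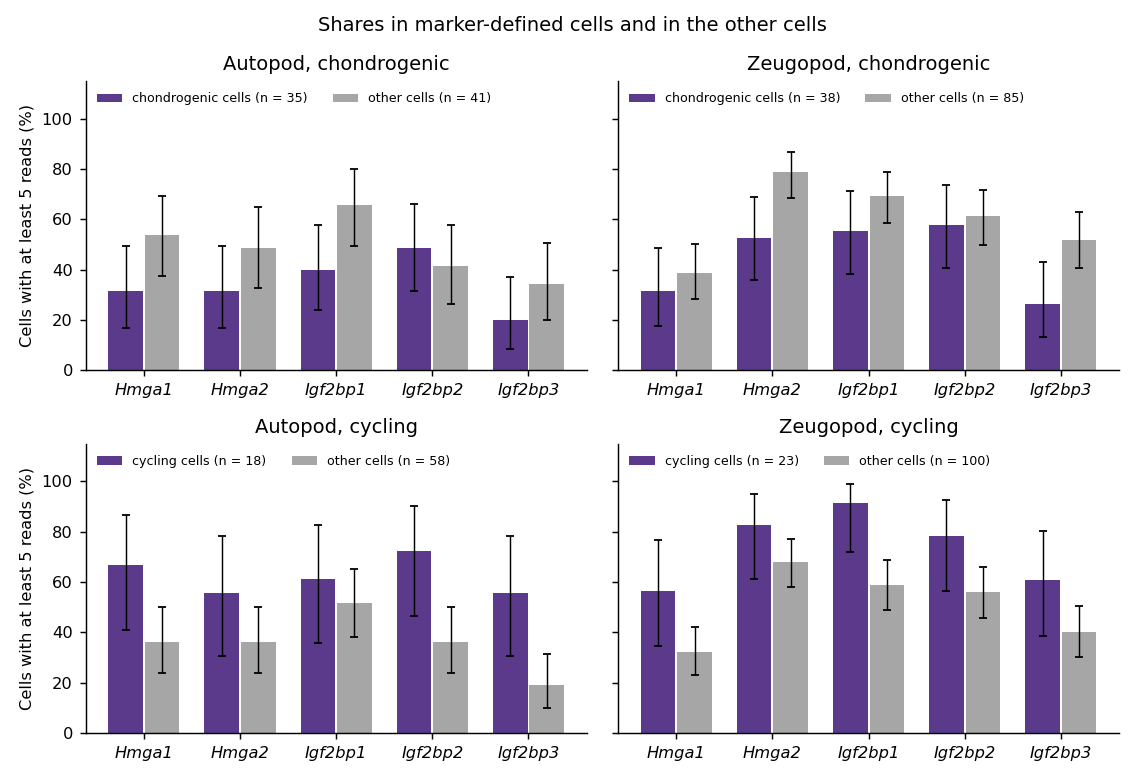
Share of cells with at least 5 reads of each member (y axis, percent) in cells with chondrogenic markers (top) or cell cycle markers (bottom) and in the other cells of the autopod (left) and zeugopod (right), with 95% Clopper-Pearson intervals. Igf2bp3 was lower in chondrogenic cells (26.3% against 51.8% in the zeugopod), and cycling cells had higher shares of all 5 members.

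Other genes of the let-7 and insulin-like growth factor pathways were described by lists. Of 12 genes that make or destroy let-7, 5 passed the filter and none differed by 1 or more between tissues over all cells, beside 6.06% of all genes higher in the autopod and 13.4% higher in the zeugopod. *Dicer1*, which cuts the precursor, had a difference of -0.61, but it passed the fold in both run comparisons with opposite signs, 1.22 within NXT0143 and -1.91 between the other runs. *Zcchc11*, a uridylyltransferase that acts with Lin28, had 0.41 (0.79 and -0.48), and *Khsrp*, which promotes let-7 maturation, had 0.39 (0.75 and -0.33). *Zcchc11* was found in 73.7% of autopod and 83.7% of zeugopod cells, in contrast to the rare *Lin28* genes. *Trim71*, itself a let-7 target, did not pass the filter, with 10.5% and 11.4% of cells.

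Of 17 other known let-7 targets 11 passed, 2 of them higher in the autopod, 2 higher in the zeugopod and 7 under the fold, beside 6.06% and 13.4% of all genes, with a list median of -0.08. *Igf1r* was lower in the autopod (-2.55) and so was *Nras* (-2.12), but both differences were near 0 within NXT0143 (0.07 and 0.12). *Mycn*, a growth-promoting transcription factor named after its value was seen, was higher in the autopod (1.65) and was found in 25% of autopod and 1.63% of zeugopod cells.

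Over all cells, most of the insulin-like growth factor list was higher in the zeugopod. Of 8 genes 6 passed, 5 of them were higher in the zeugopod by at least 1 (beside 13.4% of all genes) and 1 was under the fold, with a list median of -2.52. *Igf2*, the growth factor whose messenger RNA gave the Igf2bp proteins their name, had at least 5 reads in 93.4% of autopod cells and in every zeugopod cell, with a difference of -2.14 over all cells, -2.37 within NXT0143 and -2.25 between the other runs. *H19*, the imprinted neighbour of *Igf2*, had -3.06, -1.89 and -3.86. *Igf2r*, the receptor that clears *Igf2*, had -2.52, -0.84 and -3.36, and *Igf1r* is given above. Within NXT0143 *Igf1* (-1.65), *Igf2* and *H19* passed the fold towards the zeugopod, while *Igf2r*, *Igf1r* (0.07) and *Insr* (0.61) did not. The *Igf2bp* genes themselves stayed under the fold on this scale over all cells.

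None of the 9 other high mobility group genes that passed the filter (of 10) reached the fold over all cells. The largest differences were -0.88 for *Hmgn3* (0.62 within NXT0143 and -1.58 between the other runs) and 0.87 for *Hmgn1* (1.12 and 0.42), and *Hmga2* with -1.06 lay outside that range. Of 12 proteins known to act with the Igf2bp proteins on RNA, all 12 passed, 2 were higher in the autopod, 2 in the zeugopod and 8 were under the fold, beside the same 6.06% and 13.4%. *Hnrnpab* had 2.43 (1.21 within NXT0143), and *Pabpc1*, the poly(A)-binding protein, had 1.63 (1.40).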

How the data were processed

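Single cells were captured on a Fluidigm C1 chip, amplified with SMARTer chemistry and sequenced by the authors, who mapped reads to GRCm38 with bowtie2 (version not given in the labels). The deposited raw counts are reads per gene without molecular identifiers, in 225 cells. The deposited normalized signal of 199 cells was made by the authors from counts scaled by spike-in size factors, centred within each run, and divided by gene length in kb, and a gene with 0 reads sits at 1 divided by its length. No doublet caller was run.

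Here, shares used counts, levels used log2(signal + 1), and CPM used the counts, with python 3.11.15, numpy 2.4.6, pandas 2.3.3 and scipy 1.17.1. Genes tested reached 5 reads in 25% or more of the cells of 1 tissue or the other, and called means a difference of at least 1 on the log2 scale. Cells with at least 500000 reads were thinned to that number (seed 42), and the other cells were left out of thinned shares, which rest on 72 autopod and 119 zeugopod cells. Cell classes needed 3 markers of a list, or 2 for tendon and macrophages. No 2 retained cells had identical counts. Scripts were tested on simulated data. Named genes were the 7 members, the up to 3 genes of each list with the largest differences among those that passed the filter, *Igf2*, the defining markers, and the 3 genes most like each member, and some genes this rule names are not reported here. Members and lists were chosen with earlier results of these data known. The 26 cells outside the normalized table were left out. Precision is limited by reads per cell and by the 17 autopod cells of NXT0143.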

Additional observations from a re-analysis of the deposited data

Results flagged for a closer look

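The tissue difference of *Igf2bp1* had opposite signs in the 2 comparisons between runs, 1.52 (autopod higher) within NXT0143 and -0.91 between NXT0072 autopod and NXT0142 zeugopod cells. *Igf2bp2* did likewise, with 0.27 and -1.47. The difference between the 2 comparisons was not tested, because each rests on pools of cells with no replicate, and 48.6% of the 4898 genes had opposite signs.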

How the results depend on the processing

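No paired analysis was possible because the results come from no test and the numbers in the labels only name cells. No group had replicates, so no replicate was left out. The main limits are the joined tissue and run, reads without molecular identifiers, the 17 autopod cells of NXT0143 and the low counts of the *Hmga* genes. Every alternative kept *Hmga2* lower in the autopod. Its difference moved from -1.06 to -1.64 with a pseudocount of 0.1, to -0.37 with one of 10, where it no longer passed the fold, to -1.59 on the CPM scale and to -1.69 after thinning. *Igf2bp2* and *Igf2bp3* passed the fold on the CPM scale (-1.20 and -1.07), after thinning (-1.31 and -1.19), with a pseudocount of 0.1 (-1.16 for both) and without cycling cells (-1.13 and -1.51), and *Igf2bp3* also without the chondrogenic class (-1.02). Within NXT0143 alone the difference was 0.14 for *Hmga1*, 1.52 for *Igf2bp1*, where the sign turned, and -2.47 for *Igf2bp3*. Without the chondrogenic class, a choice made after seeing the data like that without cycling cells, *Hmga1* had 1.05, past the fold, and without cycling cells 0.20. Also chosen after seeing the data, the annotated exon bases as length gave *Igf2bp3* -0.79, and leaving out the cell A_27 gave it -2.94 within NXT0143. Genes higher in the autopod numbered 297, and 900 within NXT0143, 484 with a pseudocount of 0.1 and 94 with one of 10. Genes higher in the zeugopod numbered 655, and 1190 between NXT0072 and NXT0142 and 259 with a pseudocount of 10. The median correlation of the member pairs was 0.231, 0.134 on the CPM scale and 0.0781 with genes detected held constant.

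Shares follow with the autopod before the zeugopod where both left the interval of the reported share. At 1 read they were 56.6% and 82.9% for *Hmga2*, 71.1% and 74% for *Igf2bp1*, 63.2% and 74.8% for *Igf2bp2*, 50% and 53.7% for *Igf2bp3*, and 48% in the zeugopod for *Hmga1*. At a normalized value of 5 they were 14.5% and 42.3% for *Hmga2*, 42.1% and 47.2% for *Igf2bp1*, and 32.9% and 50.4% for *Igf2bp2*. After thinning they were 22.2% and 17.6% for *Hmga1*, 15.3% and 50.4% for *Hmga2*, 31.9% and 50.4% for *Igf2bp2*, and in the zeugopod 55.5% for *Igf2bp1* and 0% for *Lin28a*. In NXT0143 alone they were 29.4% and 80% for *Hmga2*, 76.5% for autopod *Igf2bp1*, 5.88% for autopod *Igf2bp3*, 0% for autopod *Lin28b* and 0% for zeugopod *Lin28a*. Of the alternatives tried, 27 left shares within their interval and 29 did not. For level differences 32 stayed within the SD of the 2 run comparisons and 9 did not. That SD is wide, and it comes from 2 of the alternatives it is set against. It widens as they disagree, so the tally is no measure of stability. *Igf2bp2* thus counts among the 32 although it turned from -0.86 to 0.27 within NXT0143.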
